A study of Danio rerio with 10 samples.

Results

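Zebrafish embryos that had received morpholinos against both Atg7 and Bdh2 (dual morphants) were compared with control morphants on Affymetrix zebrafish expression arrays. The arrays were chosen by their titles, 3 of dual morphants and 3 of control morphants, which is 6 of the 10 arrays of the study; the other 4 held 3 of Atg7 morphants and 1 of Bdh2 morphants. All embryos were wild-type apart from the injection, received 1 to 2 nL of a 130 micromol/L morpholino solution at the 1- to 2-cell stage, and are labelled as 72 h after fertilization, so the controls also carried a morpholino. The labels give neither the sequence of the control morpholino nor whether 130 micromol/L in dual injections was the dose of each morpholino or of both together. They also do not say how many embryos were pooled per array or whether replicates are separate clutches. The p-values thus measure no more than the spread of these samples, and that spread may be technical.

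A morpholino is a synthetic antisense oligomer that keeps its target transcript from being translated or spliced and can leave the level of that transcript in place. Atg7 is the activating enzyme for the ubiquitin-like proteins that build the autophagosome, the vesicle that carries cell contents to the lysosome for breakdown and that clears mitochondria from maturing red cells in mammals. Bdh2 is a cytosolic dehydrogenase known in mammals for making a siderophore, a small molecule that binds iron inside the cell, and iron in turn is needed for heme, the oxygen-binding group of haemoglobin. The comparison addresses the state of embryos with both genes targeted, and the Atg7 arrays and the lone Bdh2 array give the levels under each morpholino alone.

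Values are log2 intensities, on which a difference of 1 is a doubling of intensity. Of 15502 probe sets, 5041 (32.5%) differed between dual and control arrays at an adjusted p under 0.05 in limma, 2582 (16.7%) higher and 2459 (15.9%) lower in dual morphants. With 1 probe set per named gene, 1334 of 8793 genes (15.2%) rose and 1659 (18.9%) fell, and the median difference over these genes was -0.02. Most differences were small: 232 probe sets (1.50%) passed the test with at least a 2-fold difference, 115 higher and 117 lower. The 3 dual and 3 control arrays did not overlap in 7192 probe sets (46.4%), called or not. Replicates were close to each other: over all probe sets, pairs of control arrays had a Pearson's r of 0.9976 to 0.9987 and pairs of dual arrays 0.9971 to 0.9981, against 0.9852 to 0.9875 for a control array paired with a dual array. The actin control probe sets, which report on RNA integrity, were brighter at the 3 prime than at the 5 prime end, and this difference was 3.45 ± 0.067 (SD, n = 3) in control and 3.86 ± 0.044 (SD, n = 3) in dual arrays. That shift of 0.41 had an exact two-sided permutation p of 0.1, the smallest that 3 against 3 can give, and its part in the results below was not tested. The same actin difference was 3.93 ± 0.109 (SD, n = 3) in Atg7 arrays and 4.30 in the Bdh2 array. Markers of muscle, liver, blood and neurons were all bright, which fits the label of whole embryos, with control means of 13.58 for ckma, 12.61 for tfa, 14.03 for hbae3 and 10.35 for elavl3.

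The transcripts of the targeted genes gave little to read. bdh2 read 7.17, 7.07 and 7.27 in control arrays and 7.38, 7.28 and 7.17 in dual arrays. The groups overlapped, and the difference of 0.11 ± 0.072 (SE) did not pass the test (adjusted p 0.297 in limma). No probe set was named atg7, so the effect of the Atg7 morpholino on its own transcript was not analysed here.

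**Figure D1:**
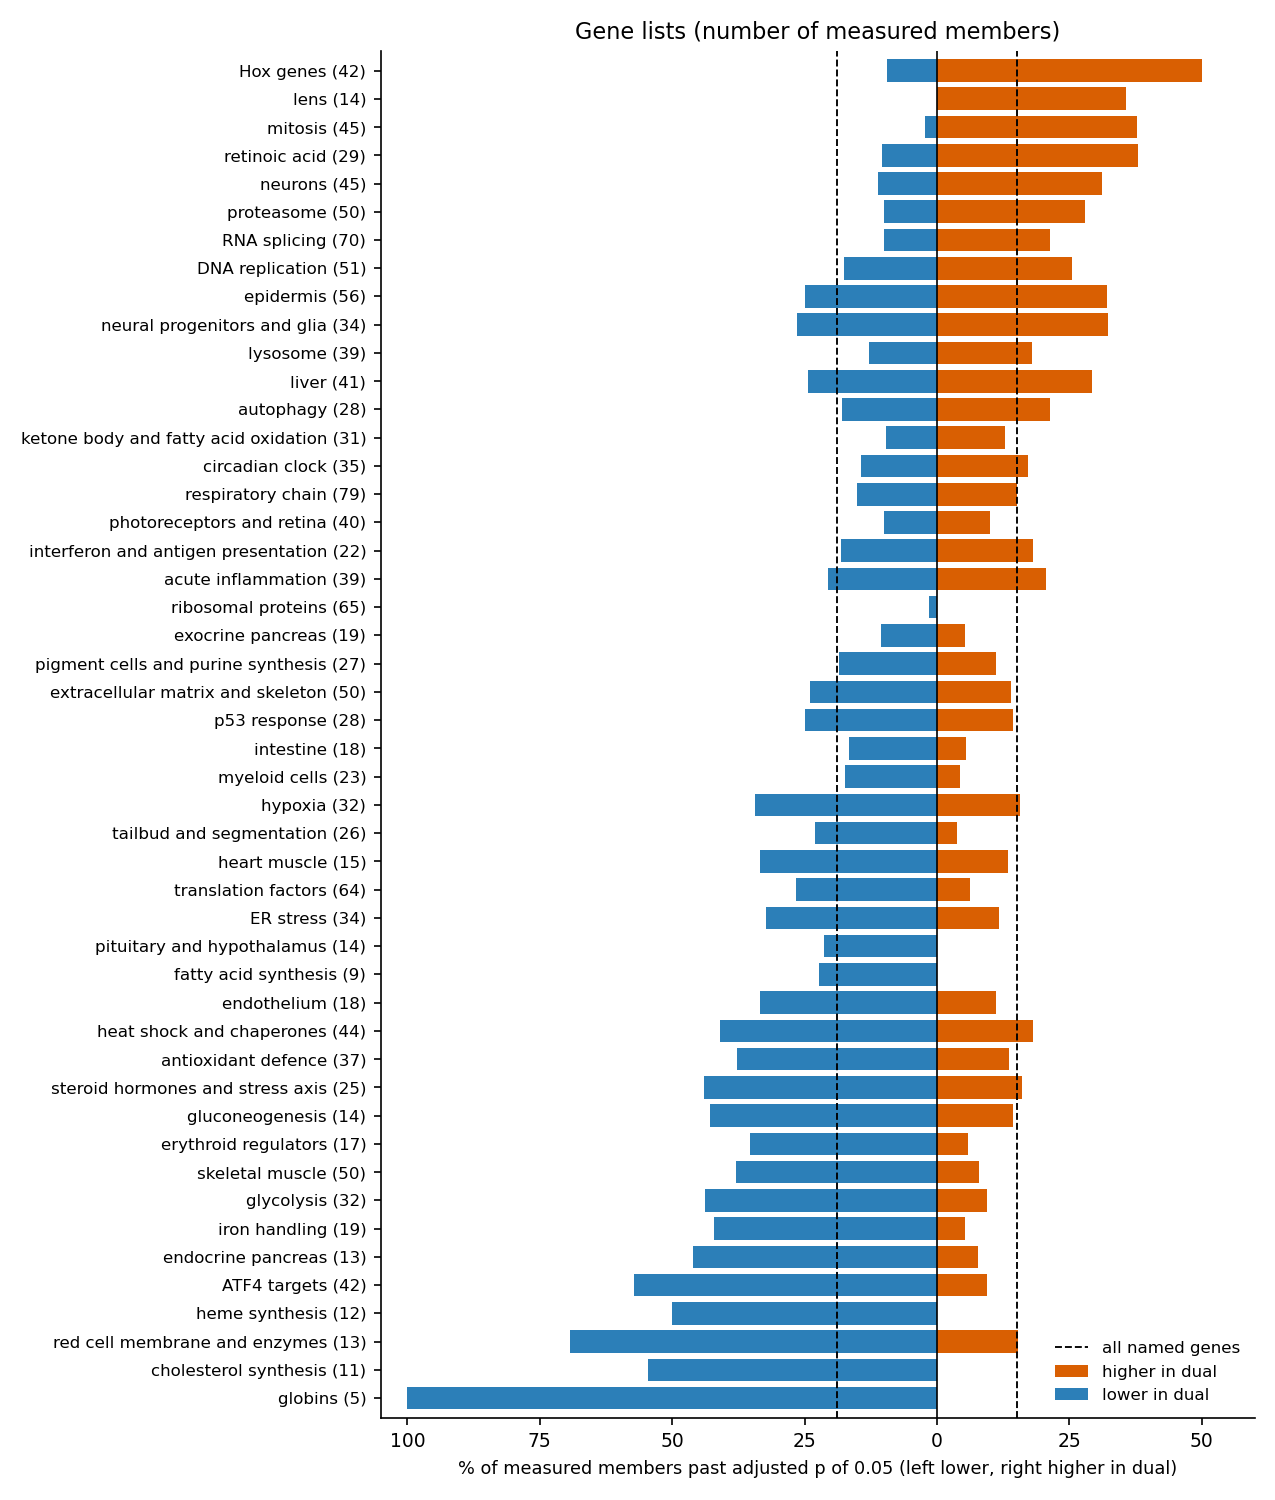
Share of measured members of 48 gene lists that passed an adjusted p of 0.05 in dual against control arrays, lower to the left and higher to the right, with the number of measured members in parentheses; dashed lines mark the shares over all named genes, 18.9% lower and 15.2% higher. Globins, red cell membrane and enzyme genes, ATF4 targets and cholesterol synthesis genes lay furthest to the left, and Hox genes furthest to the right.

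Red cell genes were lower in dual morphants. All 5 measured globin genes fell, with a median difference of -1.50 against -0.02 over all genes. The beta-type embryonic globin hbbe2 read 10.96, 10.94 and 10.91 in control arrays and 7.47, 7.43 and 7.38 in dual arrays. The groups were separated by more than 3 log2 units, a difference of -3.51 ± 0.060 (SE), 11.4-fold lower in dual arrays (adjusted p 3.53e-12). The Atg7 mean lay between them at 9.43, the Bdh2 array was at 7.04, and dual arrays were lower than Atg7 arrays (adjusted p 3.73e-10). The alpha-type embryonic globin hbae3 read 14.02, 14.08 and 14.00 in control and 12.52, 12.52 and 12.44 in dual arrays, and its 2 probe sets fell by 1.54 and 1.74, the latter with probes shared with other transcripts. A further embryonic beta globin, hbbe3, fell by 1.50 (adjusted p 6.01e-09), with dual and Atg7 means of 10.69 and 10.77 that did not differ past the threshold (adjusted p 0.388). The globins hbba2 and hbaa1, which carry oxygen mainly after the embryonic stage, were dim in both groups. hbba2 fell by 0.62, and the call of hbaa1, at -0.49, was lost when control replicate 3 was left out (adjusted p 0.05).

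Proteins of the red cell membrane and its enzymes followed. Of 13 measured members of that list, 9 fell and 2 rose, with a median of -0.32. slc4a1a, the anion exchanger band 3 of the red cell membrane, read 9.48, 9.45 and 9.46 in control and 7.65, 7.60 and 7.74 in dual arrays. It was 3.48-fold lower (-1.80 ± 0.061 SE, adjusted p 1.18e-09), and the Atg7 mean of 7.84 and the Bdh2 value of 7.62 were close to the dual level. cahz, the red cell carbonic anhydrase, read 8.74, 8.89 and 8.77 in control and 6.72, 6.94 and 7.06 in dual arrays, 3.71-fold lower. Again no dual array reached the lowest control array. epb41b, a membrane skeleton protein of the 4.1 family, fell by 1.01, and nt5c2l1, a nucleotidase, fell by 0.75. The 2 that rose were blvrb, a biliverdin and flavin reductase, by 0.84, and ca2, another carbonic anhydrase, by 0.27. One member that fell, cldn3d, is a claudin that entered the list through an older gene name and has no known red cell role; its call was lost in 4 of the 6 fits that left out 1 array (adjusted p up to 0.103).

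Heme synthesis supplies the globins. In its list, which also holds genes of heme binding and transport, 6 of 12 measured genes fell while none rose. alas2, the first and rate-limiting enzyme of heme synthesis in red cells, read 7.57, 7.77 and 7.55 in control and 5.84, 5.63 and 5.73 in dual arrays. The difference was -1.90 ± 0.075 (SE), 3.72-fold lower (adjusted p 4.38e-09), and the Atg7 mean was 6.18 and the Bdh2 array 6.14. urod, uroporphyrinogen decarboxylase, fell by 0.64, and slc25a38b, a mitochondrial glycine carrier, fell by 0.36. hebp2, a heme-binding protein, fell by 0.48. Some calls needed all arrays: cpox, coproporphyrinogen oxidase, at -0.22 and the heme transporter slc48a1b at -0.30 each lost the call in 4 of the 6 fits that left out 1 array, with adjusted p up to 0.0788 and 0.077. fech, which inserts iron into heme, was at 5.36 in control and 5.31 in dual arrays and did not pass the test (adjusted p 0.743). The synthesis enzymes alas1 and alad, at -0.11 and -0.17, were not called either (adjusted p 0.22 and 0.217).

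Among 17 erythroid regulators, 6 fell, 1 rose and 10 were not called, where 18.9% of all named genes fell and 15.2% rose. The list median of -0.05 was near the -0.02 of all named genes. The rise was klf3, by 0.27, and the rises numbered 2 without control replicate 2 or dual replicate 1. gata1a, the transcription factor that drives red cell differentiation, read 4.74, 4.79 and 4.65 in control and 4.08, 3.76 and 4.11 in dual arrays, a difference of -0.74 ± 0.103 (SE, adjusted p 0.00017). The groups did not overlap, although both were dim. klf1, a globin gene activator, fell by 0.52, and lmo2, a partner of the early blood factors, fell by 0.53. In whole-embryo RNA, fewer red cells and less of these transcripts per red cell cannot be told apart.

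**Figure D2:**
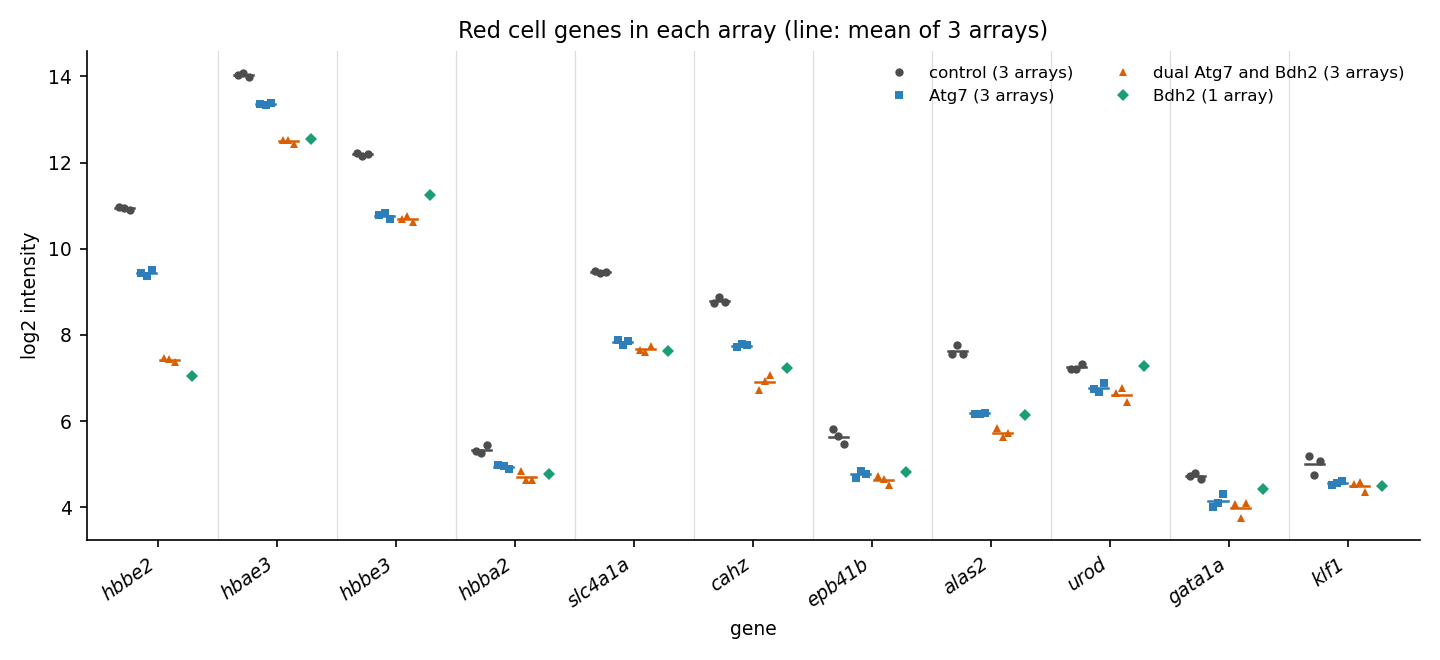
Log2 intensity of 11 red cell genes in each array, grouped by morpholino, with a line at the mean of 3 arrays; the Bdh2 group has 1 array. In each gene the 3 dual arrays lie below the 3 control arrays, from hbbe2 (10.94 against 7.43) to klf1 (5.01 against 4.49).

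Iron handling genes fell more often than they rose, 8 against 1 of 19, with a median of -0.17. cp, ceruloplasmin, the plasma ferroxidase that loads iron onto transferrin, read 9.24, 9.26 and 9.37 in control and 7.59, 7.47 and 7.50 in dual arrays, 3.41-fold lower (adjusted p 1.5e-09). It separated the morpholinos: the Atg7 mean was 9.66, above control, and the Bdh2 array was at 6.88. fthl28, a ferritin heavy chain-like gene, was lower by -0.46 in dual than in control arrays and by -1.06 than in Atg7 arrays. The divalent metal importer slc11a2 fell by 0.36, the ferritin autophagy receptor ncoa4 by 0.40, and aco1, the cytosolic aconitase that doubles as an iron regulatory protein, by 0.33. tfa, transferrin, the plasma iron carrier, was the single rise, from 12.61 to 12.86. The main ferritin fth1a was at 13.11 in control and 13.14 in dual arrays and did not pass the test (adjusted p 0.725). The list also counts mmgt1, which has no iron role known to be its own and whose call was lost without dual replicate 1 or without control replicate 3 (adjusted p up to 0.0531).

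Of 28 measured autophagy genes, 6 rose and 5 fell, shares near the 15.2% higher and 18.9% lower of all named genes, and the median was 0.01. The mitophagy receptors bnip3 and bnip3lb, which mark mitochondria for removal, fell by 0.81 and 0.78. bnip3lb read 8.79, 8.77 and 8.61 in control and 7.98, 7.95 and 7.89 in dual arrays, and its Atg7 mean was 8.81. A dimmer bnip3lb probe set at -0.18 did not pass the test. The rises included map1lc3a, a protein that coats the autophagosome membrane, by 0.35 and wipi1, which binds that membrane early, by 0.51. sqstm1, the cargo receptor p62, was higher in Atg7 arrays (8.24) than in control (7.68) or dual arrays (7.75). The dual level did not differ from control (adjusted p 0.478) and was lower than Atg7 by -0.49 (adjusted p 0.000103).

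Of 39 lysosomal genes, 7 rose and 5 fell, where 15.2% of all named genes rose and 18.9% fell. The count of lysosomal falls was 3 without dual replicate 1. The 2 largest differences were opposite. ctsba, the protease cathepsin B, read 8.75, 8.71 and 8.69 in control and 10.57, 10.63 and 10.59 in dual arrays, 3.68-fold higher (adjusted p 9.65e-10), with the Atg7 mean at 9.54 and the Bdh2 array at 10.95. An unnamed probe set with the same leading number in its name fell from a mean of 10.54 in control to 4.62 in dual arrays. Its Atg7 mean was 9.93 and the Bdh2 array was at 4.59. Whether both probe sets read cathepsin B was not tested, so the direction of ctsba is not settled here. ctss2.1, a cathepsin S gene, read 10.08, 9.98 and 10.08 in control and 9.09, 9.08 and 9.09 in dual arrays, 1.94-fold lower.

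Chaperone genes included wide differences in both directions. Of 44 measured, 8 rose and 18 fell. hsp70.3, an inducible Hsp70 whose probe set shares probes with other transcripts, read 8.55, 8.53 and 8.59 in control and 11.32, 11.54 and 11.46 in dual arrays, 7.39-fold higher (adjusted p 3.37e-11). Atg7 arrays were on the other side of control, with a mean of 7.70, and the Bdh2 array was at 11.10. The Hsp70 co-chaperones dnaja1 and dnajb1b rose by 1.31 and 0.66. Their activator hsf1, the heat shock transcription factor, was lower, by -0.91, also on shared probes. A dimmer hsf1 probe set, on shared probes as well, was at -0.15 and did not pass the test (adjusted p 0.261). ahsa1a, an activator of the Hsp90 ATPase, read 7.12, 7.11 and 7.08 in control and 4.46, 4.08 and 3.84 in dual arrays. Its difference of -2.98 ± 0.120 (SE) was 7.88-fold lower (adjusted p 4.94e-09). These dual values are near the bottom of the scale, so the size of the ahsa1a fall is limited by background. The mitochondrial chaperonin hspd1 fell by 0.47.

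In the endoplasmic reticulum stress list, 11 of 34 genes fell. A further 4 rose, a count that was 0 to 2 when any 1 array was left out. These included calr, at 0.22 in its brighter probe set, a call lost in all 6 fits that left out 1 array. Its dimmer probe set fell by 3.34, 10.1-fold lower (adjusted p 4.56e-11), the largest fall among all probe sets of the list. The direction of calr is thus not settled here. dnajb11, a co-chaperone of the reticulum lumen, read 8.65, 8.67 and 8.65 in control and 7.25, 7.26 and 7.54 in dual arrays, 2.48-fold lower. manf, a secreted stress-response factor, fell by 0.58 and by 0.49 in its 2 probe sets, and derl1, which moves misfolded proteins out of the reticulum, fell by 0.46.

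ATF4 is the transcription factor of the amino acid and integrated stress response, and its target genes were mostly lower: 24 of 42 fell and 4 rose, with a median of -0.21. ddit4, an inhibitor of the growth kinase complex mTORC1, read 8.29, 8.22 and 8.19 in control and 3.95, 4.56 and 4.05 in dual arrays. The difference was -4.04 ± 0.129 (SE), with the Atg7 mean at 8.04 and the Bdh2 array at 4.29. Its size is limited by background, since the dual values of ddit4 are near the bottom of the scale. The transcription factor atf5a fell by 0.80, and the amino acid transporter chain slc3a2a by 0.65. chac1, a glutathione-degrading enzyme, fell by 0.72 in its brighter probe set, while its dimmer one, at 3.25 in control arrays, did not pass the test. mthfd2 and phgdh, of mitochondrial folate and serine synthesis, fell by 0.63 and 0.57. Within the list, 7 of 10 aminoacyl-tRNA synthetases fell, a subset chosen after the values were seen. Those for methionine (mars1) and threonine (tars1) both fell by 0.74, and a dimmer mars1 probe set at 0.06 did not pass the test. The one that rose was wars1, for tryptophan, by 0.32. ppp1r15a, the phosphatase subunit that reverses the stress block on translation, rose in all 4 of its probe sets, 1 of them with shared probes, by 0.60 in the brightest.

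For the translation machinery itself, of 64 translation factors 17 fell and 4 rose, and of 65 ribosomal protein genes 1 fell and none rose. The ribosomal protein count depended on the variance model: with a prior that follows intensity, 12 rose and 6 fell.

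**Figure D3:**
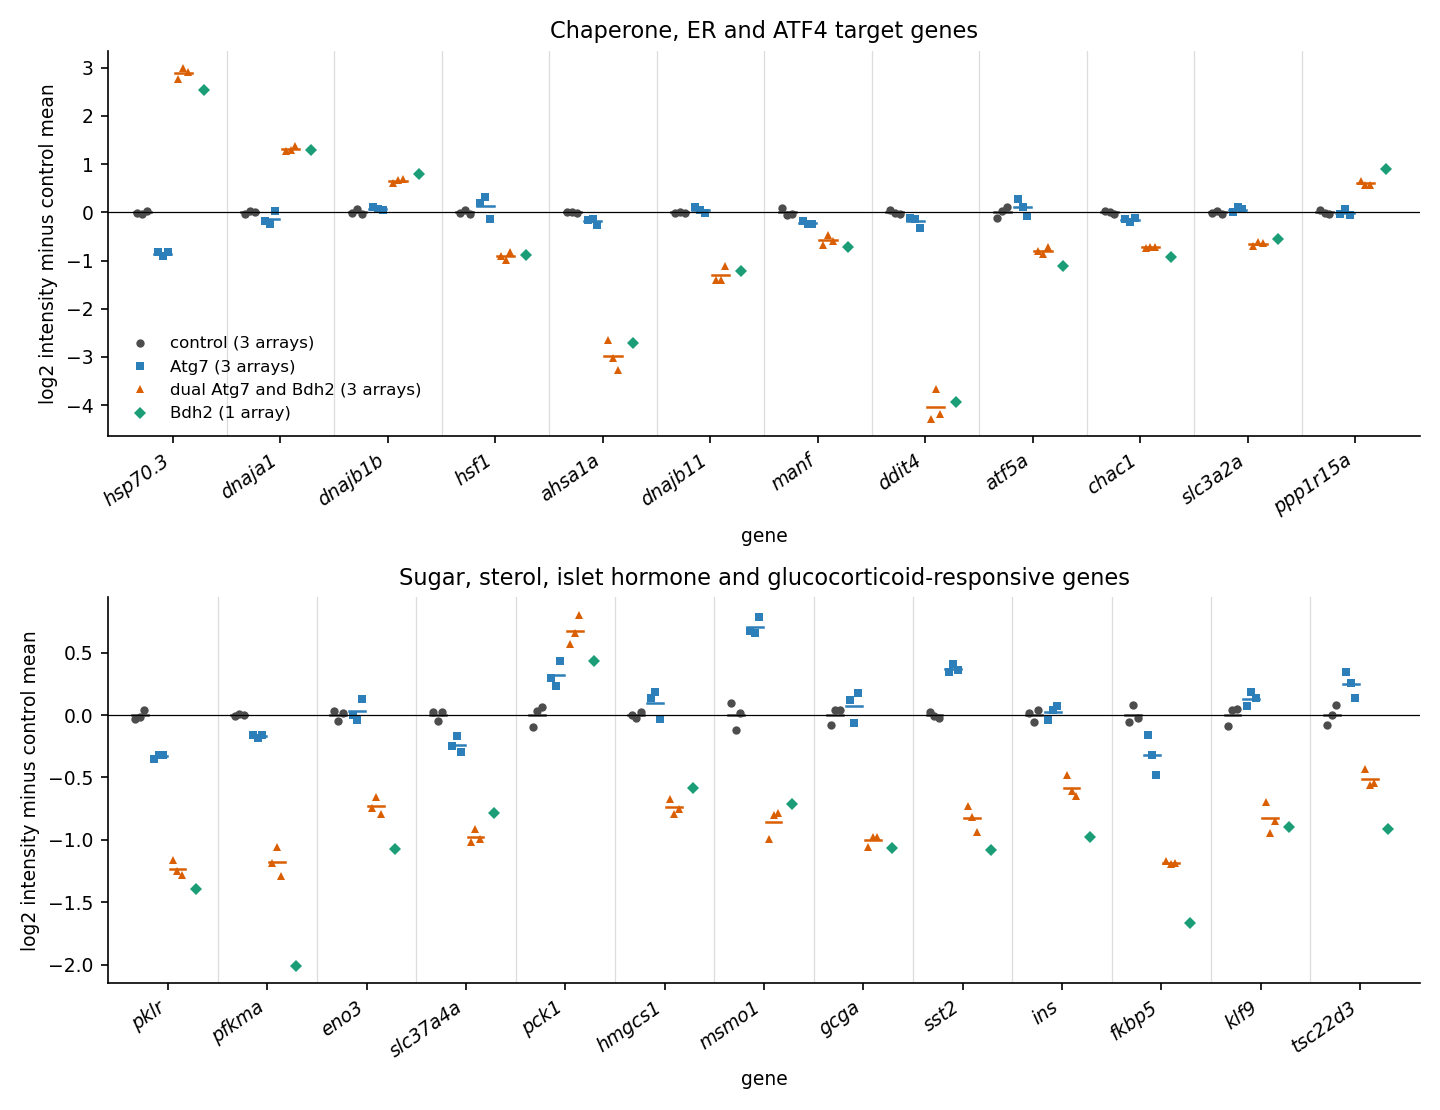
Log2 intensity minus the control mean in each array for chaperone, endoplasmic reticulum (ER) and ATF4 target genes (top) and for sugar, sterol, islet hormone and glucocorticoid-responsive genes (bottom), with a line at the mean of 3 arrays. hsp70.3 and ddit4 mark the extremes in dual arrays, at 2.88 and -4.04, and the Atg7 means were at -0.85 and -0.19 for these genes.

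Sugar metabolism genes were more often lower than higher. Of 32 glycolysis genes, 14 fell and 3 rose, with a median of -0.11. pklr, the liver and red cell pyruvate kinase, read 9.42, 9.44 and 9.50 in control and 8.29, 8.20 and 8.18 in dual arrays, 2.35-fold lower (adjusted p 1.89e-08). pfkma, the muscle phosphofructokinase, fell by 1.18, and eno3, the muscle enolase, by 0.73. In gluconeogenesis 6 of 14 fell and 2 rose. slc37a4a, the glucose 6-phosphate carrier, fell by 0.97 in its brighter probe set and was higher by 0.65 in a dimmer one, and its paralog slc37a4b fell by 0.86. pck1, which commits carbon to glucose synthesis, rose from 6.89 to 7.57.

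Cholesterol synthesis genes fell in 6 of 11 cases and rose in none, with a median of -0.23. hmgcs1, which makes the precursor of mevalonate, read 7.54, 7.52 and 7.56 in control and 6.87, 6.75 and 6.79 in dual arrays, a difference of -0.74. The sterol oxidase msmo1 fell by 0.86 and the dehydrogenase nsdhl by 0.45. insig1, the sterol sensor that holds back this pathway, fell by 0.51 and 0.44 in 2 of its probe sets, and the other, at -0.03, did not pass the test. Against Atg7 arrays, 7 of the 11 were lower in dual arrays and none was higher, where 20.0% of all named genes were lower and 15.0% higher. msmo1 was above control in Atg7 arrays, at a mean of 6.05 against 5.35.

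Hypoxia-responsive genes fell in 11 of 32 cases and rose in 5, where 18.9% of all named genes fell and 15.2% rose. The count of falls was 7 without control replicate 1 or without control replicate 2. igfbp1a, an insulin-like growth factor binding protein, fell by 0.86 and 0.90 in its 2 probe sets, and the mitochondrial protein higd1a by 0.77 and 0.57. Among 37 antioxidant genes 14 fell and 5 rose. selenop2, a selenoprotein P, read 7.64, 7.56 and 7.52 in control and 5.78, 5.63 and 5.71 in dual arrays, 3.65-fold lower. Catalase (cat) fell by 0.60 and the glutathione transferase gstt1a by 0.61. nfe2l2a, the transcription factor Nrf2 that controls many of these genes, rose from 6.93 to 7.83. In the respiratory chain 12 of 79 genes rose and 12 fell, shares near those of all genes, and the count of rises was 6 without dual replicate 2 and 7 without control replicate 2. cox4i1l, a cytochrome c oxidase subunit, was 1.99-fold lower.

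The pancreatic islet makes the hormones that balance blood glucose. Of 13 endocrine pancreas genes, 6 fell and 1 rose, and the rises numbered 2 without control replicate 3 or dual replicate 1. gcga, glucagon, read 6.83, 6.95 and 6.95 in control and 5.85, 5.93 and 5.93 in dual arrays, 2.01-fold lower (adjusted p 8.98e-07). sst2, a somatostatin, fell by 0.83 and ins, insulin, by 0.58. Each of these was near or above control in Atg7 arrays, with differences of 0.08, 0.37 and 0.03, and each was lower in dual than in Atg7 arrays. The islet transcription factor pax6b, which also acts in eye and brain, fell by 0.44. isl1a, which is also expressed in neurons, rose by 0.42 in its brighter probe set, on shared probes, and was at 4.90 in both groups in its dimmer one. Of 19 exocrine pancreas genes, 2 fell and 1 rose, both shares below those over all named genes. The exocrine falls numbered 1 without control replicate 3 or dual replicate 3.

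In the steroid and stress axis list 11 of 25 genes fell and 4 rose. fkbp5, a co-chaperone of the glucocorticoid receptor, read 6.79, 6.93 and 6.82 in control and 5.68, 5.65 and 5.66 in dual arrays, 2.27-fold lower (adjusted p 4.59e-07). The transcription factor klf9 fell by 0.83 and tsc22d3, known as Gilz, by 0.51, while pck1, described with gluconeogenesis, rose by 0.68. The cortisol-inactivating enzyme hsd11b2 fell by 0.65. The receptor gene nr3c1 gave different readings: its brightest probe set was at 9.20 and 9.23 with no call (adjusted p 0.818), a second fell by 0.46 (adjusted p 0.0121) and the remaining one, at -0.18, did not pass the test. cyp17a1, a steroid hydroxylase, gave 2 answers: a probe set with shared probes rose by 1.98, and its other probe set was at -0.20 with no call. Among 35 circadian clock genes 6 rose and 5 fell, shares near those over all named genes. The count of clock rises was 3 without control replicate 2. per2, a light-induced clock repressor, fell by 0.90 in its brighter probe set and was not called in the other, the activator bmal1b by 0.73, and fbxl3a, which targets cryptochromes for destruction, rose by 0.55.

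Skeletal muscle genes fell in 19 of 50 cases and rose in 4, with a median of -0.13. atp2a1l, a calcium pump of the SERCA family, read 10.23, 10.23 and 10.14 in control and 8.35, 8.41 and 8.43 in dual arrays, 3.50-fold lower (adjusted p 3.18e-09). The parvalbumins pvalb5 and pvalb3, calcium buffers of fast muscle, fell by 1.14 and 1.15, and ldb3a, a protein of the sarcomere's Z-disc, by 0.98. The change was not uniform. A probe set of the giant sarcomere protein titin, ttn.2, rose from a mean of 8.01 in control to 10.09 in dual arrays, and a second was higher by 1.64, while its 2 dimmest, at 2.89 to 4.09 on average in either group, did not pass the test. ckma, the muscle creatine kinase, fell by 0.34. Among 15 heart genes 5 fell and 2 rose, and the rises numbered 0 among probe sets with a mean of at least 6. The heart genes named here are all falls. tnnc1a, the cardiac troponin C, fell by 0.87, atp2a2a, the cardiac calcium pump, by 0.93, and myl7, an atrial myosin light chain, by 0.33.

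Liver genes split, 12 higher and 10 lower of 41. Among secreted proteins of the liver, the clotting factor gene f7i read 4.59, 4.72 and 4.71 in control and 5.88, 5.93 and 6.26 in dual arrays, and serpinc1, antithrombin, rose by 1.02. The lipoprotein component apom rose by 0.94. On the other side were cp, described with the iron genes, hpxa, the heme scavenger hemopexin, which fell by 0.91, and ambp, which fell by 0.54. In the intestine list 3 of 18 fell and 1 rose, both shares below those over all named genes. That rise was not called without control replicate 1 or dual replicate 1. rbp2a, a retinol carrier of gut cells, fell by 0.59 and was lower still in Atg7 arrays (7.49 against 7.69).

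The epidermis list was divided, with 18 of 56 genes higher and 14 lower. lgals2b, a galectin, read 10.03, 10.03 and 10.17 in control and 7.18, 7.11 and 6.70 in dual arrays, 8.43-fold lower (adjusted p 1.27e-09), and its Atg7 mean was 10.43. The keratins krt94 and krt15 fell by 1.25 and 1.17, whereas krt1-19e rose in both of its probe sets, by 0.96 on shared probes and by 0.74. In a subset chosen after the values were seen, 9 of 11 genes of desmosomes and the cornified envelope, the junctions and protective shell of outer skin cells, rose and none fell. The envelope protein evpla rose by 0.86 and the desmosomal cadherin dsg2.1 by 0.57 in its brightest probe set, with its 2 dimmer ones not called. The actinodins, structural proteins of the fin fold rays, all fell: and2 read 11.14, 11.12 and 11.03 in control and 9.28, 9.22 and 9.36 in dual arrays, and and1 and and3 fell by 0.70 and 0.93, the last on shared probes.

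Of 50 matrix and skeleton genes, 12 fell and 7 rose, where 18.9% of all named genes fell and 15.2% rose. col10a1a, a collagen of early bone and of hypertrophic cartilage, read 8.05, 8.04 and 8.09 in control and 5.38, 5.42 and 5.34 in dual arrays, 6.43-fold lower (adjusted p 1.35e-11). Its Atg7 mean was 8.21 and the Bdh2 array was at 4.34. The small proteoglycan dcn fell by 0.45 and col1a1a by 0.35, on shared probes. fbln1, a basement membrane protein, rose by 0.75 in its brighter probe set and was not called in its dimmer one.

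In the lens 5 of 14 genes rose and none fell. crybb1, a beta crystallin, read 8.65, 8.75 and 8.72 in control and 10.08, 10.01 and 10.06 in dual arrays, 2.54-fold higher (adjusted p 6.98e-09). cryba4 rose by 1.52 on shared probes, and the alpha crystallin cryaa by 0.72. In photoreceptors and retina 4 of 40 rose and 4 fell, both shares below those over all named genes. The count of these falls was 2 without dual replicate 3. pde6c and pde6ha, subunits of the cone phosphodiesterase that answers light, fell by 0.71 and 0.80, the latter on shared probes. The retinal transcription factors nr2e3 and vsx1 rose by 0.54 and 0.53, while both were lowest in the lone Bdh2 array, at 4.36 and 5.54. Among neuronal genes 14 of 45 rose and 5 fell, with a median of 0.10. elavl3, an RNA-binding protein of newborn neurons, read 10.32, 10.38 and 10.33 in control and 11.54, 11.41 and 11.41 in dual arrays, and all 4 of its probe sets rose, by 0.38 to 1.21. gad2, which makes the inhibitory transmitter GABA, rose by 0.86 and gap43, of growing axons, by 0.52. Among the neuronal falls were gng13b, by 0.60, and neurod6a, by 0.50. Neural progenitor and glial genes were split, 11 higher and 9 lower of 34: the Notch target gene her2 and the glial glutamate transporter slc1a3a rose by 0.80 and 0.57, and the receptor notch1a fell by 0.91 on shared probes.

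Hox genes, which set position along the body axis and are numbered by paralog group from head to tail, rose in 21 of 42 cases and fell in 4, with a median of 0.18. The direction followed the paralog group, a split made after the values were seen. In groups 1 to 4, 8 of 13 rose and none fell, and in groups 5 to 10, 13 of 20 rose and none fell. In groups 11 to 13, 4 of 9 fell and none rose. Among probe sets with a mean of at least 6, the Hox falls numbered 2. hoxb6b read 6.70, 6.82 and 6.69 in control and 7.60, 7.57 and 7.51 in dual arrays, a difference of 0.82 ± 0.063 (SE, adjusted p 1.48e-06). hoxb1a and hoxb8a rose by 0.80 and 0.79, the latter in the brightest of 3 probe sets, of which the dimmest was not called. At the tail end, hoxa13b read 5.08, 5.29 and 4.94 in control and 4.48, 4.41 and 4.33 in dual arrays, a difference of -0.70, and hoxc13a and hoxd13a fell by 0.40 and 0.39.

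**Figure D4:**
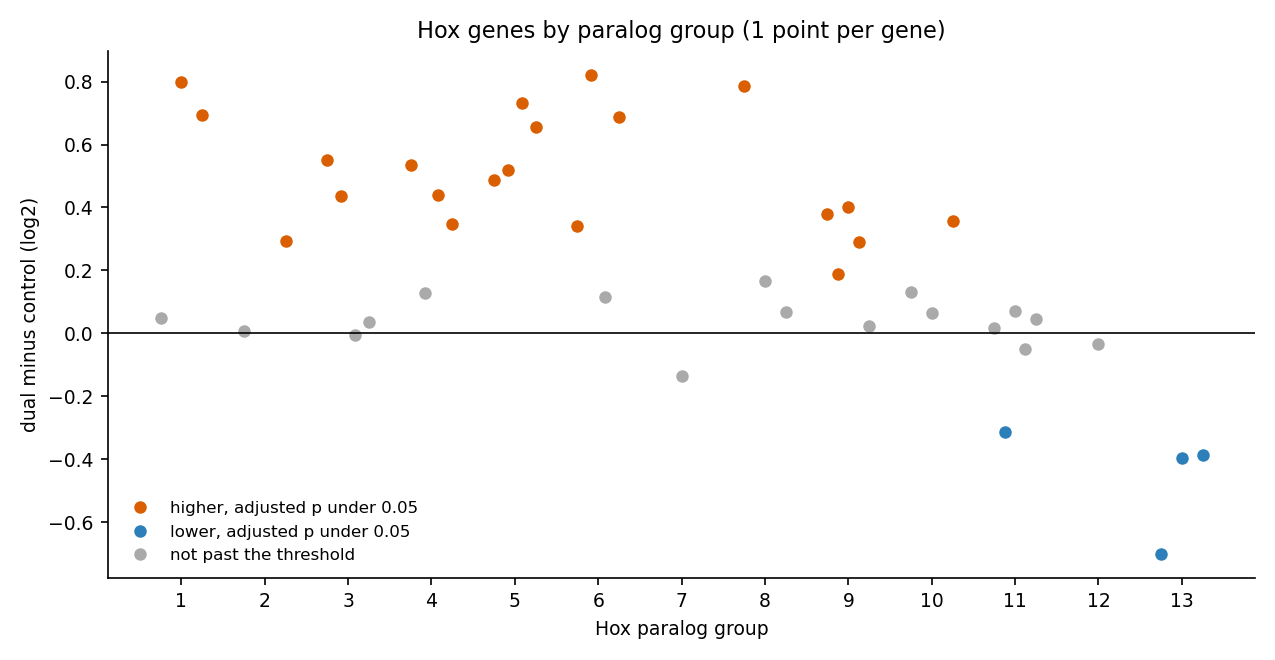
Dual minus control difference (log2) of 42 Hox genes against paralog group, 1 point per gene, spread sideways within a group; colour marks the direction of genes past an adjusted p of 0.05. Every rise lies in groups 1 to 10, up to 0.82, and every fall in groups 11 and 13, down to -0.70.

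Retinoic acid activates anterior Hox genes, but its level was not measured here and a link to the Hox differences was not tested. Of 29 genes of its synthesis, breakdown and response, 11 rose and 3 fell. cyp26a1, the enzyme that degrades retinoic acid and is itself induced by it, read 8.20, 8.05 and 7.96 in control and 10.10, 10.08 and 10.27 in dual arrays, 4.22-fold higher (adjusted p 3.52e-09). The Atg7 mean was 9.27 and the Bdh2 array 9.98, and dual exceeded Atg7 by 0.87 (adjusted p 7.1e-06). dhrs3a, which returns retinaldehyde to retinol, rose by 0.86, and aldh1a2, the main synthetic enzyme of the embryo, fell by 0.54.

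Cell cycle genes were more often higher than lower. Of 45 mitosis genes 17 rose, with a median of 0.11, and 1 fell, a call that was lost in 5 of the 6 fits that left out 1 array. anln, a scaffold of the cleavage furrow, read 8.31, 8.33 and 8.32 in control and 8.92, 8.82 and 9.14 in dual arrays. cdca5, which protects sister chromatid cohesion, rose by 0.44. Among 51 DNA replication genes 13 rose and 9 fell, and the count of falls was 5 without dual replicate 3. slbp, which binds histone transcripts, read 9.82, 9.74 and 9.50 in control and 10.16, 10.27 and 10.28 in dual arrays, lig1, the replicative DNA ligase, rose by 0.51, and pold2, a polymerase subunit, fell by 0.53. Against Atg7 arrays more members were called, with 33 of the 51 replication genes and 27 of the 45 mitosis genes higher in dual arrays and 3 and 0 lower. Over all named genes, 15.0% were higher and 20.0% lower than in Atg7 arrays. The Atg7 arrays themselves lay below control in these lists. Their median differences from control were -0.22 for replication and -0.09 for mitosis, against -0.01 over all named genes. The dual minus control median for replication was 0.06.

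Genes of inflammation and of the p53 response differed between dual and Atg7 morphants. The comparisons with control and with Atg7 arrays share the dual arrays, so their values are given side by side. Of 39 acute inflammation genes, 24 were lower and 3 higher in dual than in Atg7 arrays. Of all named genes, 20.0% were lower and 15.0% higher. The median of the list was -0.40 against -0.01 over all named genes. Against control arrays 8 rose and 8 fell, the rises numbering 5 without dual replicate 2. mmp9, a matrix metalloproteinase of inflammatory cells and wounds, read 6.75, 6.83 and 6.69 in control, 5.95, 5.84 and 5.99 in dual and 8.51 on average in Atg7 arrays. Dual arrays were thus below control (-0.83, adjusted p 1.85e-06) and below Atg7 (-2.59, adjusted p 7.62e-11). mmp13a, a collagenase read on shared probes, differed by -1.42 from control and by -2.91 from Atg7 arrays. The cytokine feedback inhibitor socs3a and the interferon-regulated factor irf1b, the latter on shared probes, were 0.21 and 0.25 above control in dual arrays and differed from Atg7 arrays by -1.29 and -1.59. The call of socs3a against control was lost without dual replicate 2 or control replicate 1, and that of irf1b without dual replicate 1, dual replicate 2 or control replicate 2. The immediate early gene fosab rose by 1.19 over control on shared probes and was lower than in Atg7 arrays by -0.52 (adjusted p 0.00239). Its other 3 probe sets rose by 0.26 to 1.11, the one at 0.35 on shared probes. The immediate early gene ier2a and the NF-kappaB subunit nfkb2 rose by 0.57 and 0.47 and did not pass the test against Atg7 arrays (adjusted p 0.686 and 0.162). Of 23 myeloid cell markers, 1 rose and 4 fell against control, both shares below those over all named genes. In the same list 4 were higher and 3 lower than in Atg7 arrays.

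p53 target genes respond to DNA damage and other stress. Of 28 measured, 13 were lower and 4 higher in dual than in Atg7 arrays, where 20.0% of all named genes were lower and 15.0% higher. Against control 7 fell and 4 rose, and the falls numbered 4 without control replicate 2 and the rises 2 without control replicate 1, control replicate 2 or dual replicate 2. rps27l, a ribosomal protein-like p53 target, read 9.76, 9.78 and 9.72 in control and 9.24, 9.24 and 9.13 in dual arrays and had an Atg7 mean of 11.02. phlda3, an inhibitor of Akt signalling, was at 6.68, 6.15 and 7.50, and casp8, an apoptosis initiator, at 5.73, 4.99 and 6.48 in control, dual and Atg7 arrays. sesn3, a sestrin that restrains mTORC1, fell by 0.80. Among the rises, ccng2 was higher than control by 0.46 and 0.66 in its 2 probe sets. Both were also above Atg7 arrays, by 0.38 and 0.52. gadd45ba rose by 0.24 and, on shared probes, by 0.29. The call of the former probe set was lost in 4 of the 6 fits that left out 1 array.

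**Figure D5:**
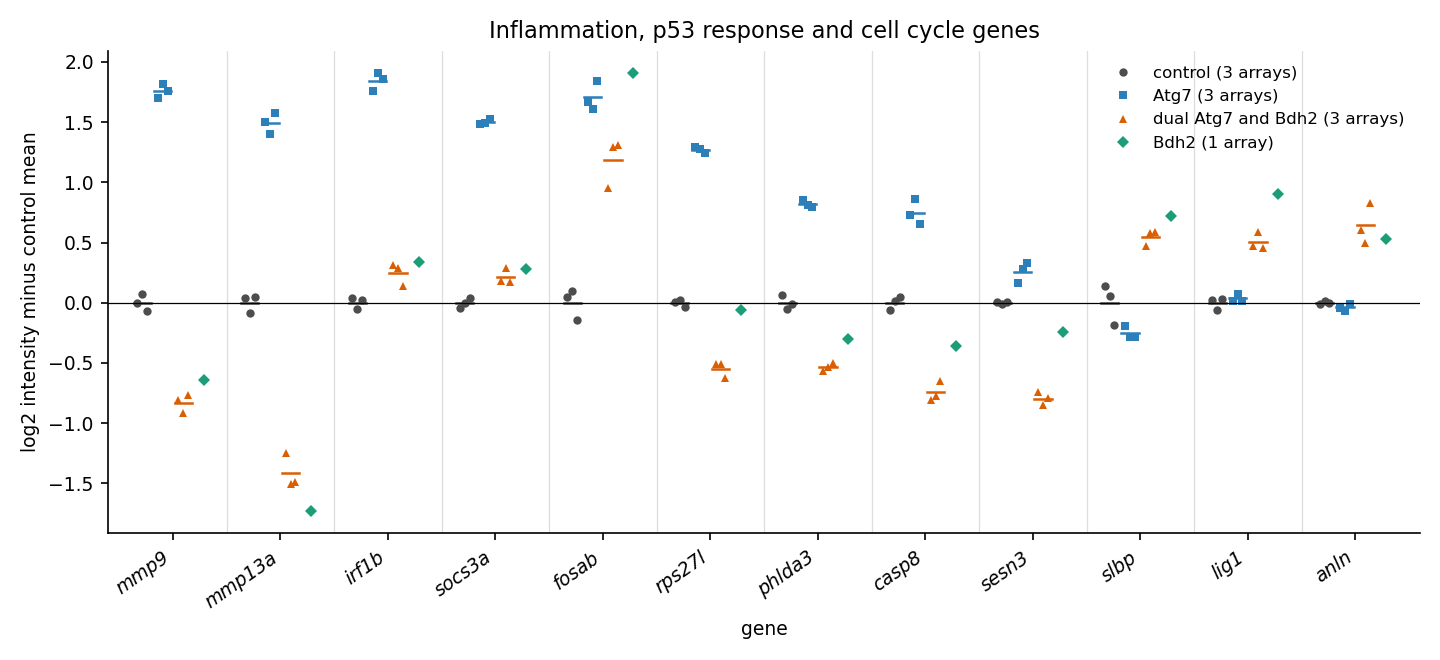
Log2 intensity minus the control mean in each array for inflammation (mmp9 to fosab), p53 response (rps27l to sesn3) and cell cycle genes (slbp to anln), with a line at the mean of 3 arrays. mmp9, mmp13a and the 4 plotted p53 targets lie above control in Atg7 arrays and below it in dual arrays, with mmp9 at 1.76 and -0.83. The p53 targets that rose, such as ccng2, are not plotted.

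Proteasome genes, which encode the complex that degrades tagged proteins, rose in 14 of 50 cases and fell in 5. The count of rises was 8 without dual replicate 2 and 7 without control replicate 2, shares near the 15.2% of all named genes that rose. Of 70 splicing genes 15 rose and 7 fell, where 15.2% of all named genes rose and 18.9% fell. sf3b5, a subunit that helps recognise the branch point of introns, read 9.19, 9.22 and 9.26 in control and 10.22, 10.33 and 10.19 in dual arrays, with an Atg7 mean of 8.77.

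Agreement between probe sets was checked for genes read more than once. Of 1539 such genes, 784 had a called probe set, 202 had every probe set called in 1 direction (106 higher and 96 lower), and 33 had calls in both directions. Of 54 called probe sets of these genes with at least a 2-fold difference, 39 had a second probe set called the same way and 2 the opposite way. Of the 10 best supported genes with every probe set called lower, the largest fall was that of elovl8b, of the fatty acid elongase family, whose probe sets were 4.59-fold and 3.70-fold lower. Others were the binding protein igfbp1a, kdelr2a, which returns escaped proteins to the reticulum, by 1.18 and 0.60, and pofut1, an O-fucosyltransferase for Notch, by 0.57 to 0.65 in 3 probe sets, 2 of them with shared probes. Among rises were rsf1b.1, a chromatin remodelling subunit, by 1.22 and 0.96, the cytoskeletal linker pleca by 0.84 and 0.91, the adhesion adaptor lims1 by 0.83 on shared probes and by 0.90, and cep55l, of the final step of cell division, by 0.76 and 0.77. Some probe sets of a gene, such as those of lims1 and hbae3, share their name up to the suffix. Their agreement may not be independent support.

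The largest differences spanned much of the intensity scale. At least a 4-fold difference was called in 39 probe sets (0.252%), 16 higher and 23 lower, of which 11 had no single gene name. The unnamed probe set with the largest fall read 13.74, 13.82 and 13.79 in control and 4.49, 4.93 and 5.42 in dual arrays, with the Atg7 mean at 13.84 and the Bdh2 array at 4.63. In the opposite direction, the unnamed probe set with the largest rise went from a mean of 3.44 in control to 11.05 in dual arrays, with the Atg7 mean at 3.82 and the Bdh2 array at 9.92. Levels this low are near the bottom of the scale, so the size of such differences is limited by background, and no detection calls were used. Among named genes with 1 probe set, LOC100002043 dropped by 4.25 and frg1, a nuclear RNA-associated protein, by 3.35, and parvaa, an adhesion adaptor of the parvin family, and the nuclear import receptor tnpo2a rose by 1.84 and 1.76. mhc1zba, a class I histocompatibility gene, read 6.28, 6.37 and 6.28 in control and 3.51, 3.56 and 3.51 in dual arrays, with an Atg7 mean of 6.49 and 3.59 in the Bdh2 array. mchr1b, a melanin-concentrating hormone receptor, rose by 2.80 in 1 probe set and was at -0.17 with no call in the other.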

How the data were processed

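Whole embryos at 72 h after fertilization were profiled on 1-colour Affymetrix zebrafish arrays with biotin-labelled RNA. The deposited values are log2 intensities with 1 value per probe set, made by the authors with Affymetrix Expression Console per the submitters' processing notes; the summarisation algorithm, background correction and normalization are not given in the sources used here. The log2 unit was read from the range of 2.48 to 14.9. Array medians of 6.33 to 6.38 show a common level set across arrays, which would hide a shift of all transcripts in 1 direction. Detection calls were not used. The number of arrays limits the precision.

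Groups were taken from the array titles. The 115 control probe sets were left out, and the other 15502 were fitted with limma 3.58.1 (lmFit, then eBayes) under R 4.3.3, all 10 arrays in 4 groups with 6 residual degrees of freedom. Contrasts were dual minus control and dual minus Atg7, with Benjamini-Hochberg adjustment over all 15502 and a threshold of 0.05; every adjusted p in the text comes from this fit or, where an array is said to be left out, from the same fit without it. The lone Bdh2 array is given as a value with no test. "Rose" and "fell" are used for genes past the threshold, and errors marked SE come from the fit. The fit was tested on simulated data with 200 changed probe sets: 50 of 50 rises and 49 of 50 falls of 1 log2 unit were recovered, and 41 and 44 of 50 for rises and falls of 0.5. The simulated noise was independent between probe sets and arrays. It thus held no batch or other noise shared within an array, and far fewer probe sets changed than were called here.

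The platform annotation gave 1 gene symbol to 10795 probe sets, several to 135 and none to 4572, and 10711 were matched by Entrez ID to the RefSeq table of GRCz12tu for current symbols. No coordinates were taken from it. A suffix (a, s or x) marks 917 of the tested probe sets for probes shared with other transcripts, which the text states for named genes. These suffixes were pooled, so the other transcripts can be of the same gene, as with the suffix a, or of other genes. For the 48 gene lists each of the 8793 genes was represented by its probe set with the highest mean over the 10 arrays; "brighter" and "dimmer" refer to that mean. List counts and medians are descriptions and were not tested. Alternatives were other normalizations, a filter on low means, another variance prior, the replicate number as a block, the 2 groups alone and leaving out each array.

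The members and lists were chosen with earlier results of these data known. Named genes are bdh2; the 10 rises and 10 falls best supported among genes whose every probe set was called 1 way; the 8 largest rises and 8 largest falls among genes with 1 probe set; and from each list the 3 called rises and 3 called falls with the smallest p, with all members open to naming in the globin, heme, erythroid regulator, iron and clock lists. Genes named outside this rule were chosen after their values were seen: ambp, and1, and3, atf5a, atp2a2a, cat, cdca5, ckma, cldn3d, col1a1a, cryaa, dsg2.1, gad2, hoxb1a, hoxd13a, hsf1, hspd1, insig1, irf1b, krt15, krt94, mars1, mthfd2, myl7, nr3c1, nt5c2l1, pax6b, phgdh, phlda3, pvalb3, socs3a, sqstm1, tars1 and tsc22d3, and the unnamed probe sets.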

Additional observations from a re-analysis of the deposited data

How the results depend on the processing

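The count of probe sets called between dual and control arrays was 5041. It was 5141 with only these 2 groups in the fit, 5203 after quantile normalization, 5046 with arrays centred on their medians, 5440 with an intensity trend and robust prior, and 4148 of 8596 probe sets with a mean of at least 6. Leaving out 1 array gave 4104 to 4641. For dual against Atg7 arrays the count was 5115, with 4056 to 4595 when 1 array was left out. No named gene changed direction while called. Of 311 named genes that were called, 287 were called under every alternative that held them and 24 were not under at least 1, most often when an array was left out. Most named genes were picked for a small p or a large difference in these same data. Their stability was thus favoured by the choice and does not describe all called genes. Same-numbered control and dual arrays did not deviate together (correlations -0.225, -0.04 and -0.291). Deviations from means of 3 arrays are not independent, so these correlations cannot show whether the numbers pair the samples. With the replicate block 4520 probe sets were called against control and 4541 against Atg7 arrays. Of 1248 list counts compared, 86 moved by over 1.5 times. With the filter on means, fewer members remained by construction and 3 globins, 2 erythroid regulators and 3 cholesterol genes fell. The actin 3 prime shift of 0.41 was 0.114 for the GAPDH probe sets, at the same exact permutation p of 0.1. The groups of 3 arrays, the lack of detection calls near background and the unknown source of the replicates limit what these comparisons can show. The actin difference was above control in all 3 dual arrays, and also in the Atg7 mean and the Bdh2 array.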
